A study of Mus musculus with 8 samples.

Results

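The genes described here are 10 genes by which mast cells and basophils are recognised: the secretory granule proteases Cpa3, Cma1, Mcpt4, Mcpt8, Tpsb2 and Tpsab1, the IgE receptor chains Fcer1a and Ms4a2, the histamine-forming enzyme gene Hdc and the transcription factor gene Mitf. A member was taken where a probe set of the platform's annotation carried its symbol alone, and the probe set with the highest mean was kept for each gene. All 10 were measured, on 11 probe sets, among 19938 genes of the series. The series asked how the transcription factor KLF7, delivered by a lentivirus, changes the expression of mouse stem and progenitor cells. Marrow from C57Bl/6 mice was enriched for c-Kit before transduction, and Lin- c-Kit+ Sca-1+ cells, a fraction that holds stem and early progenitor cells, were sorted after 72 hours. There were 4 arrays labelled KLF7, from cells given the KLF7 virus, and 4 labelled control, from cells given a control virus. Cells of both groups were therefore cultured and transduced before the sort. No label says whether animals were pooled or whether arrays stand for separate cultures, and the p-values therefore reflect only array-to-array spread, which may be technical.

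Mast cells and basophils are rare granulocytes of allergy and of defence against parasites. Both arise in the bone marrow, carry the high-affinity IgE receptor, which joins an alpha chain (Fcer1a), a beta chain (Ms4a2) and a gamma chain shared with other receptors (Fcer1g), and release histamine and proteases when bound IgE is cross-linked. Mast cells of connective tissue depend on the c-Kit receptor and store chymases, tryptases and carboxypeptidase A3 with heparin, while the mouse protease gene Mcpt8 is a marker of basophils. The list therefore holds genes of both cell types, and it is called the mast cell and basophil genes below. Lineage-negative sorting is meant to deplete mature cells, and no antibody against the IgE receptor is named in the labels.

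Intensities are given as log2 values, on which a difference of 1 is a doubling. The median intensity of an array lay between 46.2 and 54.1 units before log2 was taken, and the number of arrays limits the precision. The files hold no detection call and no true zero, so absence of a transcript cannot be stated for any array. The transduced gene, Klf7, differed by 1.76 (SE 0.46) with an adjusted p of 0.327 in limma, and the array labelled KLF7 2 (10.19) lay below the array labelled control 2 (10.28). Groups are therefore named by their labels. In bulk RNA, fewer cells of a type and less RNA per cell cannot be told apart.

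The mast cell and basophil genes varied widely between arrays of the same group, and none differed between KLF7 and control beyond that variation. Apart from Mcpt4, their levels were higher on the arrays numbered 1, 2 and 3 than on the array numbered 4, in both groups. The array numbered 4 was the lowest of its group, in both groups, for 9 of the 10 genes, against 18.5% of all genes. It lay at least 1 log2 below every other array of its group, in both groups, for 8 of the 10, against 0.346% of all genes (69 genes). The exceptions were Mcpt4, for which control 1 was the lowest control array, and Mitf, which fell short of the 1 log2 gap. No label says what arrays of the same number share.

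Cpa3, which encodes the carboxypeptidase of mast cell and basophil granules, stood at 12.07, 12.28, 12.56 and 7.998 on KLF7 arrays 1 to 4, and at 11.11, 12.32, 11.999 and 7.48 on control arrays 1 to 4. The array numbered 4 was 16.8-fold below the next lowest array among the KLF7 arrays, and 12.4-fold below it among the control arrays. No other gene of the series had a larger within-group spread (SD 2.19, against a median of 0.24 over all genes). The group means were 11.23 ± 2.16 on the KLF7 arrays and 10.73 ± 2.22 on the control arrays (SD, n = 4 each), and the groups overlapped. The difference of 0.50 (SE 1.18, 95% interval -2.12 to 3.11) had a limma adjusted p of 0.965 (Benjamini-Hochberg, over all genes).

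The chymase family genes followed Cpa3 in part. Cma1, the mouse gene for mast cell protease 5, stood at 8.69, 9.88, 9.83 and 5.56 on KLF7 arrays 1 to 4, and at 8.12, 8.88, 8.98 and 5.91 on control arrays 1 to 4. Each KLF7 array numbered 1 to 3 lay above the control array of the same number, while KLF7 4 lay below control 4. The difference was 0.52 (SE 0.95, limma adjusted p 0.956). Mcpt4, a chymase gene of connective tissue mast cells, stood at 4.79, 6.85, 5.80 and 4.50 on KLF7 arrays 1 to 4, and at 4.55, 5.31, 5.21 and 4.72 on control arrays 1 to 4. Its 2 highest values were those of KLF7 2 and KLF7 3 (difference 0.54, SE 0.44, limma adjusted p 0.848). Mcpt4 was the dimmest of the 10 genes, with a mean of 5.22 over the 8 arrays, below the array medians.

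Mcpt8, the basophil protease gene, stood at 9.79, 10.83, 10.83 and 7.91 on KLF7 arrays 1 to 4, and at 10.15, 10.65, 10.96 and 6.98 on control arrays 1 to 4. The groups had nearly equal means, 9.84 ± 1.38 on the KLF7 arrays and 9.68 ± 1.84 on the control arrays (SD, n = 4 each). The difference was 0.15 (SE 0.88, 95% interval -1.79 to 2.10, limma adjusted p 0.989).

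The tryptases are trypsin-like proteases stored as tetramers with heparin. Tpsb2, the gene for mouse mast cell protease 6, stood at 8.90, 10.49, 10.32 and 5.81 on KLF7 arrays 1 to 4, and at 9.52, 9.97, 10.29 and 6.195 on control arrays 1 to 4. The groups overlapped throughout (difference -0.11, SE 1.10, limma adjusted p 0.995). Tpsab1, its neighbour, is annotated by RefSeq as a transcribed pseudogene on the C57BL/6J assembly GRCm38.p6, and its probe set was nevertheless far from flat. It stood at 7.21, 7.71, 7.58 and 5.196 on KLF7 arrays 1 to 4, and at 7.58, 8.79, 8.34 and 5.27 on control arrays 1 to 4. It was the 1 member of the 10 that lay below the same-numbered control array in all 4 comparisons, by 0.37, 1.08, 0.76 and 0.07, a pattern that 9.68% of all genes shared. The difference was -0.57 (SE 0.75, 1.48-fold lower, limma adjusted p 0.941). The tryptase genes are close paralogues, and whether their probe sets cross-hybridise was not tested.

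The IgE receptor chains averaged higher on the KLF7 arrays. Fcer1a, the chain that binds IgE, stood at 8.62, 10.44, 9.81 and 5.98 on KLF7 arrays 1 to 4, and at 7.66, 9.63, 9.18 and 5.76 on control arrays 1 to 4. Ms4a2, the signal-amplifying beta chain gene, stood at 8.22, 8.82, 9.39 and 5.59 on KLF7 arrays 1 to 4, and at 7.38, 8.54, 8.22 and 4.92 on control arrays 1 to 4. Both genes lay above the same-numbered control array in all 4 comparisons, as 11.2% of all genes did, and the groups still overlapped for both. The differences were 0.65 (SE 1.01, limma adjusted p 0.944) for Fcer1a and 0.74 (SE 0.90, 1.67-fold, limma adjusted p 0.934) for Ms4a2.

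Hdc, which encodes histidine decarboxylase, stood at 9.14, 10.21, 10.39 and 7.03 on KLF7 arrays 1 to 4, and at 10.04, 10.20, 10.30 and 6.51 on control arrays 1 to 4. Control arrays 1 to 3 lay between 10.04 and 10.30, control 4 was 11.6-fold below the lowest of them, and the group means differed by -0.07 (SE 0.92, limma adjusted p 0.996). Mitf, a basic helix-loop-helix transcription factor needed for mast cell development and for the transcription of several granule protease genes in the mouse, varied far less. It stood at 7.199, 7.16, 7.49 and 6.22 on KLF7 arrays 1 to 4, and at 6.12, 6.74, 6.74 and 5.99 on control arrays 1 to 4. It lay above the same-numbered control array in all 4 comparisons, and KLF7 4 was the 1 KLF7 array that lay within the control range. The difference of 0.62 (SE 0.29, 1.53-fold, 95% interval -0.02 to 1.25) had the smallest adjusted p of the 10 genes, 0.625 in limma. A second Mitf probe set lay between 2.65 and 2.88 on the KLF7 arrays and between 2.60 and 2.77 on the control arrays, and differed by 0.12 (SE 0.10).

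**Figure D1:**
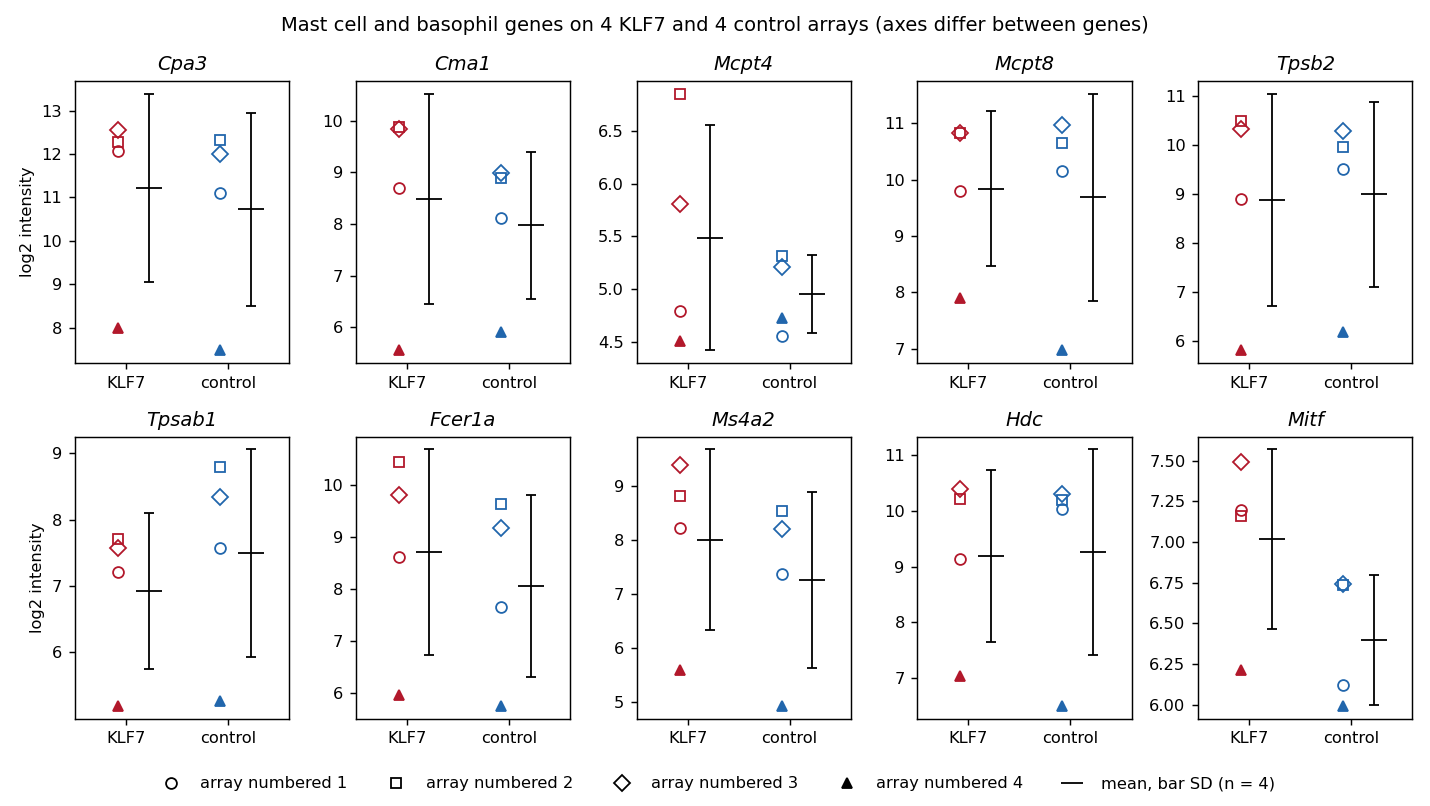
Log2 intensity of each of the 10 mast cell and basophil genes on the KLF7 arrays (red) and control arrays (blue), with the marker shape giving the array number and the black bar the mean ± SD (n = 4); the axes differ between genes. The filled triangles, the arrays numbered 4, are the lowest points of both groups in 9 of the 10 panels, and the groups overlap in every panel.

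Over the 10 genes, 7 had a higher KLF7 mean and 3 a lower mean (Tpsb2, Tpsab1 and Hdc), against 50.4% of all genes with a higher mean. The groups of 4 overlapped for all 10, whereas those of 5.22% of all genes did not. The median difference was 0.51, against 0.0019 over all genes. None of the 10 passed an adjusted p of 0.05 over all genes in limma, as 0% of all genes did, and none had an unadjusted p under 0.05, which 8.21% of all genes had (4.65% higher and 3.56% lower). An exact two-sided permutation test on the 8 values of each gene gave p between 0.143 (Mitf) and 0.971 (Hdc), where the 70 splits allow no p below 0.0286. The within-group SD was 0.48 for Mitf, 0.80 for Mcpt4 and between 1.38 and 2.19 for the other 8 genes, and 9 of the 10 exceeded the 95th percentile of all genes (0.62).

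Without both arrays numbered 4, the standard error was smaller for 9 of the 10 genes, all but Mcpt4. The standard errors then lay between 0.22 and 0.57, against 0.29 to 1.18 with all 8 arrays. Of the 10 genes, 6 had a higher KLF7 mean, against 51.9% of all genes, and 4 a lower mean, with a median difference of 0.62 against 0.0092 over all genes. Mitf stood at 7.28 ± 0.18 on the KLF7 arrays against 6.53 ± 0.36 on the control arrays (SD, n = 3 each), a difference of 0.75 (SE 0.22, 1.68-fold), and was the 1 member whose groups did not overlap, against 15.2% of all genes in either direction and 8.05% with KLF7 above control. Tpsab1 stood at 7.50 ± 0.26 on the KLF7 arrays and 8.24 ± 0.61 on the control arrays (SD, n = 3 each), a difference of -0.73 (SE 0.31). These 2 genes had an unadjusted p under 0.05, as 9.66% of all genes did (5.17% higher, as Mitf, and 4.49% lower, as Tpsab1), and neither passed over all genes (limma adjusted p 0.321 for Mitf and 0.489 for Tpsab1), as 0% of all genes did.

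The other members kept to intervals that included 0 without those arrays. The differences were 0.80 (SE 0.36) for Cma1, 0.79 (SE 0.45) for Mcpt4, 0.80 (SE 0.57) for Fcer1a, 0.77 (SE 0.37) for Ms4a2 and 0.49 (SE 0.30) for Cpa3. The difference of Mcpt8 was then -0.10 (95% interval -0.85 to 0.64), that of Tpsb2 -0.02 (95% interval -0.95 to 0.91) and that of Hdc -0.26 (95% interval -0.98 to 0.45). With all 8 arrays kept and a term for the arrays numbered 4, limma called 0 of the 10 genes against 0.13% of all genes, and 2 had an unadjusted p under 0.05, both higher, against 12.3% of all genes (6.9% higher). The smallest adjusted p was again that of Mitf (0.210), followed by Ms4a2 (0.336).

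**Figure D2:**
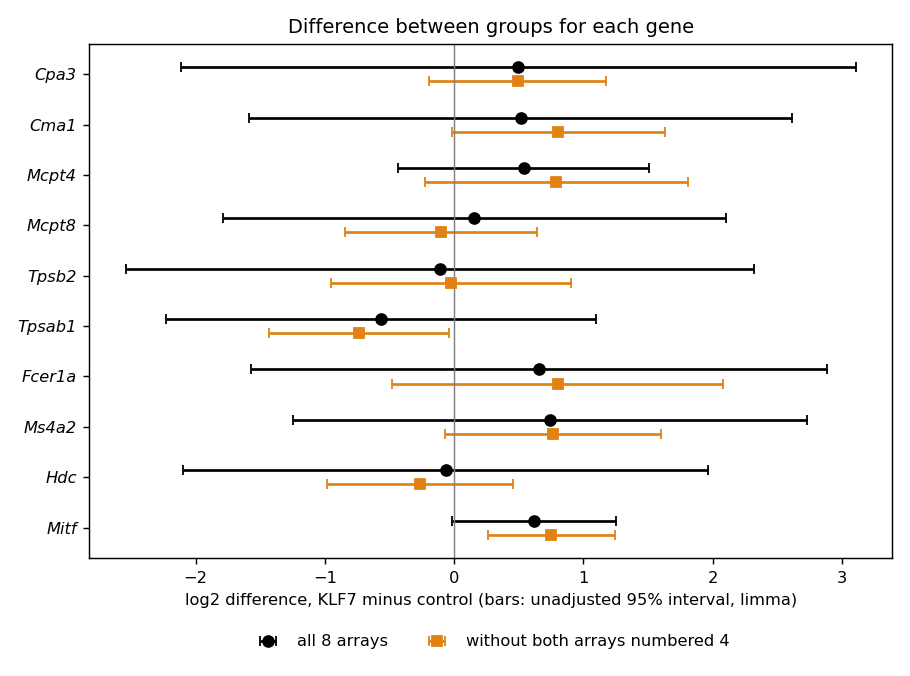
Log2 difference, KLF7 minus control, for each of the 10 genes with its unadjusted 95% interval from limma, with all 8 arrays (black circles) and without both arrays numbered 4 (orange squares). The intervals of all but Mcpt4 are narrower without those arrays, and those of Mitf (0.26 to 1.24) and Tpsab1 (-1.43 to -0.04) then leave out 0.

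Leaving out only 1 of the arrays numbered 4 unbalanced the groups and moved most members. Without control 4 the differences were -0.59 for Cpa3, -0.17 for Cma1, -0.75 for Mcpt8, -0.11 for Fcer1a, -0.04 for Ms4a2, -0.98 for Hdc, -1.05 for Tpsb2 and -1.31 for Tpsab1. Without KLF7 4 they were 1.57 for Cpa3, 1.49 for Cma1, 0.80 for Mcpt8, 1.56 for Fcer1a, 1.55 for Ms4a2, 0.65 for Hdc, 0.91 for Tpsb2 and 0.01 for Tpsab1. Mitf (0.48 and 0.88) and Mcpt4 (0.46 and 0.87) stayed above 0 in both. The median over the 10 genes was -0.38 without control 4, 0.90 without KLF7 4, 0.07 without KLF7 2 and 0.06 without KLF7 3.

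The windows of 250 bases before the annotated start of these genes were searched for motifs, because 8 of the genes were low on the same arrays. RefSeq promoter entries on GRCm38.p6 matched 8 of the 10 genes, all but Tpsb2 and Tpsab1, with 10 windows, 3 of them for Mitf. The letters GATAA, the core bound by GATA factors such as GATA2, were searched on both strands and lay in 7 of the 10 windows, against 22.6% of 32851 promoter windows of the same length. They were absent from the windows of Mcpt8 and Hdc and from 1 Mitf window. By gene, 6 of the 8 held a match: Cpa3, Cma1, Fcer1a, Ms4a2, Mcpt4 and Mitf. Mcpt4 and Mitf were the 2 members without the 1 log2 gap on the arrays numbered 4. Tpsb2 and Tpsab1 had that gap but have no window. The E-box CATGTG, a form bound by MITF, lay in the Fcer1a window alone, against 12.3% of all windows, and CACGTG in none, against 6.02%. The letters CCNCNCCC, a form of the site that Krüppel-like factors bind, lay in the windows of Hdc, where 2 matches overlapped each other, and of 1 Mitf start, against 45.9% of all windows. A match is a description of these letters and not evidence of binding. The windows of the gene with the largest spread and of the receptor chains are shown, on the minus strand of GRCm38.p6 and written 5′ to 3′, with GATAA or its reverse complement TTATC and CATGTG or its reverse complement CACATG in capitals. The Cpa3 window (chr3:20242182-20242431) holds GATAA 45 bases before the start, the Fcer1a window (chr1:173227230-173227479) holds TTATC 92 bases and CACATG 208 bases before it, and the Ms4a2 window (chr19:11623720-11623969) holds 3 matches, at 224, 37 and 10 bases.
Cpa3: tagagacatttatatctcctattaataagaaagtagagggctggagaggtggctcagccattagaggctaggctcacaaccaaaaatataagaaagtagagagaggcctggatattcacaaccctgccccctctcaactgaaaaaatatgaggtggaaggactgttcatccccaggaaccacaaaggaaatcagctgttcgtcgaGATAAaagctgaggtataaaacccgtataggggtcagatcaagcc
Fcer1a: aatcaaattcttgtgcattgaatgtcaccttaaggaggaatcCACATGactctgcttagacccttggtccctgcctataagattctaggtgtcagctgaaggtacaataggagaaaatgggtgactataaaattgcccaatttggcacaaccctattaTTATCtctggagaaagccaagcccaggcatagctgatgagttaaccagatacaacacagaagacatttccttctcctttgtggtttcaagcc
Ms4a2: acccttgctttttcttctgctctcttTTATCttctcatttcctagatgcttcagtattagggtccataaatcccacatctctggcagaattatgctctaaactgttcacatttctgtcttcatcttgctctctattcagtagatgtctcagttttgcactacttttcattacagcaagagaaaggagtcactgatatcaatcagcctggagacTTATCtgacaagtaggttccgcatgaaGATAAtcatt

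The chymase and tryptase genes lie in clusters with related protease genes, and only some neighbours shared the pattern across arrays. Mcpt1, Mcpt2, Gzmd, Gzmf, Gzmg and Gzmn had group means between 2.69 and 4.39, below the array medians, where a fall would be hard to see. Ctsg was bright (10.03 on the KLF7 and 10.50 on the control arrays), but KLF7 1 (8.95) lay below KLF7 4 (9.22). In RefSeq's order on chromosome 14, Cma1 is followed by Cma2, Mcpt1, Mcpt2, Mcpt9, Mcpt4, Mcpt8, Ctsg and a run of granzyme genes that ends with Gzmb. Gzmb, at the far end, stood at 10.21, 11.04, 11.19 and 7.63 on KLF7 arrays 1 to 4, and at 9.26, 10.65, 10.17 and 6.93 on control arrays 1 to 4. Gzmc, next to it in the list, ran the other way, with 6.81 on KLF7 4 against 4.72 to 5.32 on the other KLF7 arrays, and 6.90 on control 4 against 4.38 to 5.21 on the other control arrays. On chromosome 17, Tpsg1, which encodes a membrane-anchored tryptase, adjoins Tpsb2 and was at 4.50 on KLF7 4 and 5.50 on control 4, against 7.68 to 8.91 on the other KLF7 arrays and 7.83 to 8.80 on the other control arrays. Prss34, a basophil and mast cell protease gene of the same cluster, was lowest on the array numbered 4 in both groups as well (7.01 on KLF7 4 and 6.21 on control 4). Gzmb, Gzmc, Tpsg1, Prss34, Ctsg and the dim neighbours were named after their values were seen.

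**Figure D3:**
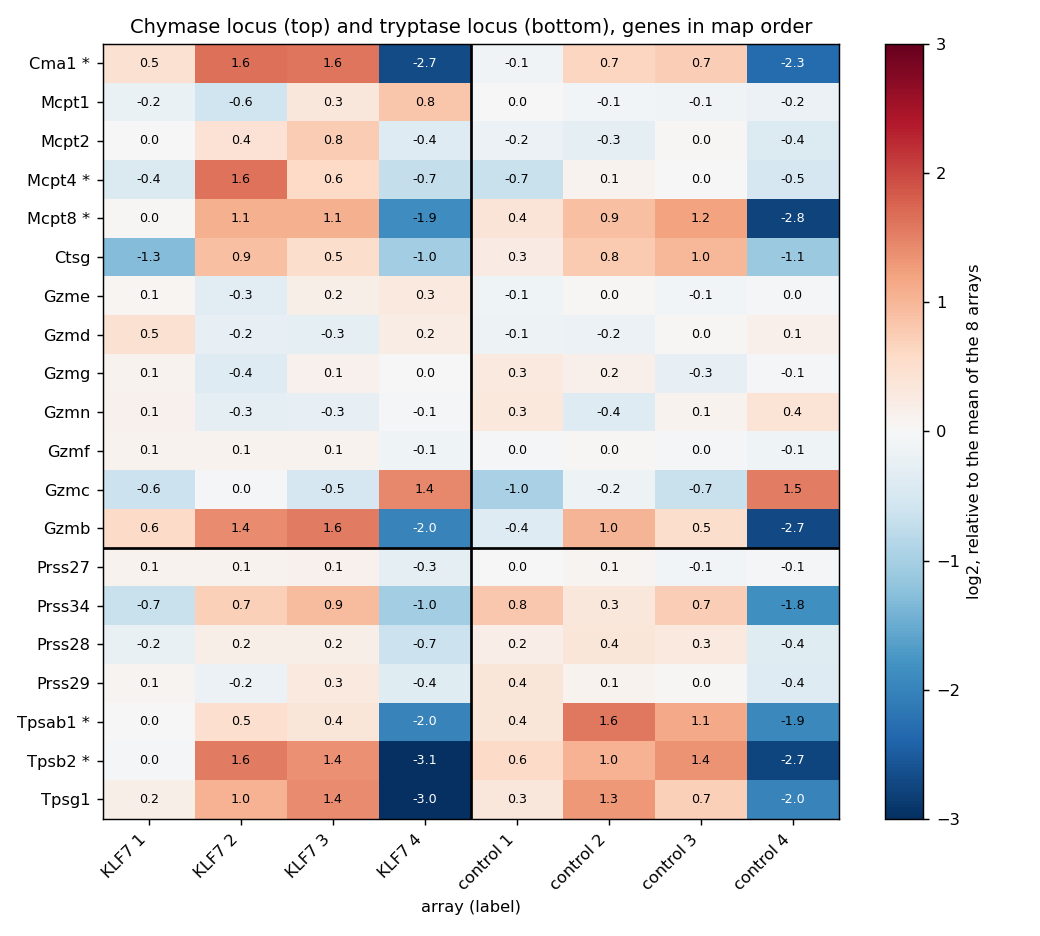
Log2 levels relative to each gene's mean over the 8 arrays for measured genes of the chymase cluster on chromosome 14 (above the line) and the tryptase cluster on chromosome 17 (below it), in map order and not to scale, with members of the list marked by an asterisk and KLF7 arrays left of control arrays. Cma1, Mcpt8, Gzmb, Tpsab1, Tpsb2 and Tpsg1 are blue on both arrays numbered 4, while Gzmc is red there.

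Of the 15 measured relatives in these clusters, 8 had a higher KLF7 mean and 7 a lower mean, with a median difference of 0.03. None had an unadjusted p under 0.05 in limma, against 8.21% of all genes. The array numbered 4 was the lowest in both groups for 7 of the 15, against 18.5% of all genes. Mcpt2, a chymase gene of mucosal mast cells, had the smallest p of them (log2 difference 0.41, SE 0.22, limma adjusted p 0.698). It was dim, at 3.58 ± 0.50 on the KLF7 arrays and 3.17 ± 0.19 on the control arrays (SD, n = 4 each). Cma2 and Mcpt9 were not analysed here.

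The signalling genes downstream of the IgE receptor did not share the low level on the arrays numbered 4. Fcer1g, the gamma chain gene that the receptor needs at the surface, stood at 10.997, 11.51, 11.50 and 11.32 on KLF7 arrays 1 to 4, and at 10.77, 11.05, 11.05 and 10.73 on control arrays 1 to 4. Fcer1g is also expressed by macrophages and other myeloid cells as a chain of other receptors. Of 20 measured signalling genes, the array numbered 4 lay at least 1 log2 below its group in both groups for 0, against 0.346% of all genes. It was the lowest in both groups for 6, against 18.5% of all genes. On the KLF7 arrays 18 of the 20 had a higher mean, against 50.4% of all genes, and 2 a lower mean, with a median difference of 0.24. An unadjusted p under 0.05 was reached by 2, against 8.21% of all genes, both higher: Grap2, an adaptor that links LAT to SLP-76 (0.70, SE 0.21, 1.63-fold), and Fcer1g (0.43, SE 0.18, 1.35-fold). Ptpn6, the inhibitory phosphatase SHP-1 (0.45, SE 0.21), and Inpp5d, the inhibitory lipid phosphatase SHIP-1 (0.42, SE 0.20), followed. None of the 20 passed over all genes (limma adjusted p 0.387 for Grap2 and 0.565 for Fcer1g).

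Among genes that build granules and release their contents, the 1 log2 gap on both arrays numbered 4 was seen for 0 of 18. Of these 18, 14 had a higher KLF7 mean and 4 a lower mean, with a median difference of 0.13. The array numbered 4 was still the lowest in both groups for 4, against 18.5% of all genes. These 4, named after their values were seen, were Srgn, Ndst2, Slc18a2 and Cd63. Ndst2 was at 7.42 on KLF7 4, against 8.19 to 8.69 on the other KLF7 arrays. It was at 7.44 on control 4, against 8.43 to 9.20 on the other control arrays. Ctsd, the gene of the lysosomal protease cathepsin D, was at 11.05 ± 0.16 on the KLF7 arrays against 10.32 ± 0.15 on the control arrays (SD, n = 4 each; difference 0.73, SE 0.17, 1.66-fold). Ctsc, whose product activates granule proteases by trimming their ends, differed by 0.71 (SE 0.24, 1.64-fold). These 2 of the 18 had an unadjusted p under 0.05, as 8.21% of all genes did, and neither passed over all genes (limma adjusted p 0.323 and 0.442). Snap23, a membrane fusion protein gene (0.43, SE 0.21), and Lyst, a regulator of lysosome size (0.60, SE 0.36), followed. The list is shared with lysosomes and secretory granules of other blood cells.

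Enzymes that make prostaglandins and leukotrienes were divided, with 4 of 8 higher and 4 lower on the KLF7 arrays. Alox5ap, which encodes the activating protein of 5-lipoxygenase, was higher (0.70, SE 0.23, 1.62-fold), and Pla2g4a, the cytosolic phospholipase that frees arachidonic acid (-0.67, SE 0.24), and Ptgds, a prostaglandin D synthase gene (-0.32, SE 0.14), were lower. These 3 of the 8 had an unadjusted p under 0.05, as 8.21% of all genes did, and none passed over all genes (limma adjusted p between 0.442 and 0.593). Lta4h, the leukotriene A4 hydrolase gene, was at -0.48 (SE 0.24).

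Among 21 measured regulators and cytokine receptors of mast cells and basophils, 16 had a higher KLF7 mean and 5 a lower mean, with a median difference of 0.25. That median was 0.094 without control 4 and 0.12 without KLF7 3. An unadjusted p under 0.05 was reached by 3, against 8.21% of all genes (4.65% higher), all higher and none past the test over all genes: Csf2rb, the shared beta chain gene of the IL-3, IL-5 and GM-CSF receptors (0.83, SE 0.29, 1.77-fold, limma adjusted p 0.461), Notch2 (0.56, SE 0.20) and Tfeb, a relative of Mitf (0.39, SE 0.16). Cebpa, a granulocyte factor gene, was at -0.59 (SE 0.29). The array numbered 4 lay at least 1 log2 below its group, in both groups, for 4 of the 21, against 0.346% of all genes. These 4, named after their values were seen, were Gata2, Kit, Csf2rb2 and Egr1. Gata2, a factor gene of progenitors, mast cells and basophils, stood at 9.99, 10.89, 11.21 and 8.41 on KLF7 arrays 1 to 4, and at 10.04, 10.45, 10.39 and 8.39 on control arrays 1 to 4. Kit, which encodes the receptor used in the sort, stood at 10.52, 9.96, 10.37 and 7.85 on KLF7 arrays 1 to 4, and at 9.57, 9.85, 9.69 and 8.33 on control arrays 1 to 4. Kit differed by 0.31 (SE 0.56) with all arrays and by 0.58 (SE 0.21, limma adjusted p 0.428) without both arrays numbered 4, where its groups did not overlap, as for 8.05% of all genes with KLF7 above control.

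Other markers of mast cells and basophils were read as whole lists. Of 12 measured mast cell markers, 10 had a higher KLF7 mean, with a median difference of 0.29. The mean level of the list lay between 5.18 and 5.80 on the KLF7 arrays and between 4.91 and 5.37 on the control arrays. Slc6a4, the serotonin transporter gene (1.37, SE 0.34, 2.58-fold), Itgb7, an integrin gene of mast cell progenitors and lymphocytes (0.87, SE 0.27, 1.83-fold), and Rgs13, a regulator of G protein signalling (0.30, SE 0.12), had an unadjusted p under 0.05, against 8.21% of all genes, and none passed over all genes (limma adjusted p 0.327, 0.402 and 0.546). Rgs13 was dim, at 2.86 ± 0.10 on the KLF7 arrays and 2.56 ± 0.23 on the control arrays (SD, n = 4 each). Both means are below the median intensity of every array. Slc6a4 ran against the proteases, with its highest value of each group on the array numbered 4 (8.31 on KLF7 4 and 6.92 on control 4). Of 9 basophil markers, 7 had a higher KLF7 mean (median 0.21). Il18r1, an IL-18 receptor chain gene, was the 1 with an unadjusted p under 0.05, against 8.21% of all genes (0.85, SE 0.27, limma adjusted p 0.415). Both lists were lowest on the array numbered 4 of each group. The basophil markers were at 6.31 on KLF7 4, against 7.28 to 7.99 on the other KLF7 arrays. They were at 5.99 on control 4, against 7.09 to 7.56 on the other control arrays. For the mast cell markers the values lay closer together, with 5.51 to 5.80 on the other KLF7 arrays and 5.13 to 5.37 on the other control arrays. Mrgprb1, Mrgprb2, Rgs13, Mcpt1 and Mcpt2 were dim, with group means between 2.51 and 3.58, where a fall would be hard to see. Slc6a4 and Itgb7 were highest on the arrays numbered 4. The mean of the list therefore does not show whether mast cell transcripts fell less than basophil ones. Of those 12 markers, the 1 log2 gap was seen in both groups for 1, Tpsg1, which is also counted among the locus relatives.

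The profile of Cpa3 was used to find genes that varied most like it, by the smallest root mean square difference of centred log2 values over the 8 arrays. The 5 nearest genes outside the list were Cd200r3, an activating receptor gene of mouse mast cells and basophils (0.20), Tph1, a tryptophan hydroxylase gene of serotonin synthesis (0.34), Lif, a cytokine gene (0.40), Gzmb (0.56) and Tpsg1 (0.64), against a median of 1.91 over all genes. Cd200r3 stood at 7.82, 8.34, 8.96 and 4.21 on KLF7 arrays 1 to 4, and at 7.39, 8.21, 8.10 and 3.70 on control arrays 1 to 4. Nearest to Mcpt8 over all genes was the member Hdc (0.21), and outside the list came Il6, a cytokine gene (0.38), S100a9 (0.43), Gzmb (0.46), Cd55, a complement regulator gene (0.47), and S100a8 (0.48), against a median of 1.42. All these genes were measured on the same 8 arrays, so arrays that stand apart weigh on every one of these values. Mitf and Mcpt4 were farther from Cpa3 (1.53 and 1.61) than any other member.

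Markers of other cells moved across the same arrays. The mean level of 12 neutrophil and granulocyte precursor markers was lowest on the arrays numbered 4 (8.04 on KLF7 4 and 7.78 on control 4), against 8.41 to 10.12 on the other KLF7 arrays and 9.01 to 10.05 on the other control arrays. The array numbered 4 was the lowest in both groups for 6 of the 12, against 18.5% of all genes. S100a8 and S100a9 lay at least 1 log2 below every other array of their groups there, while Mmp8, a neutrophil collagenase gene, was highest there (10.14 on KLF7 4 and 9.67 on control 4). The mean level of 7 eosinophil markers was also lowest there (6.203 on KLF7 4 and 6.18 on control 4), but was nearly as low on KLF7 2 (6.45) and control 2 (6.62), where the mast cell and basophil genes were high. The mean level of 5 megakaryocyte markers was highest on the arrays numbered 4 (9.31 on KLF7 4 and 9.80 on control 4), against 7.92 to 8.94 on the other KLF7 arrays and 8.29 to 8.52 on the other control arrays. Pf4, a platelet chemokine gene, was at 11.18 on KLF7 4 and 11.36 on control 4, against 8.90 to 10.67 on the other KLF7 arrays and 9.60 to 9.70 on the other control arrays. The part of these other cells in the result was not tested.

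Between the groups, the monocyte, macrophage and dendritic cell markers had the largest shift of the marker lists, with 10 of 11 higher on the KLF7 arrays (median 0.86) and 7 with an unadjusted p under 0.05, all higher, against 4.65% of all genes. These 7 were Ccr2, Adgre1, Itgax and the MHC class II presentation genes H2-Aa, H2-Ab1, H2-Eb1 and Cd74. Csf1r (0.36, SE 0.42), Cd68 (-0.03, SE 0.32), Lyz1 (0.40, SE 0.20) and Lyz2 (0.69, SE 0.45) did not reach that p. The mean level of the list lay between 8.86 and 10.01 on the KLF7 arrays and between 7.90 and 9.21 on the control arrays. It was not low on the arrays numbered 4 (9.62 on KLF7 4 and 9.21 on control 4). The median differences were 0.09 for the neutrophil, -0.30 for the eosinophil and -0.16 for the megakaryocyte markers. They were -0.41 for 5 erythroid, -0.01 for 5 B cell and 0.08 for 5 T cell markers. Of all these markers, 1 had an unadjusted p under 0.05 in limma, the erythroid gene Car2 (-0.64, SE 0.24), against 8.21% of all genes (3.56% lower). Of 8 measured stem and progenitor cell markers, 6 had a higher KLF7 mean (median 0.13). Hlf, a stem cell factor gene, was at -0.90 (SE 0.23, limma adjusted p 0.327). It was the 1 of the 8 with an unadjusted p under 0.05, against 8.21% of all genes (3.56% lower). The mean level of these markers was 7.29 on KLF7 4, within the other KLF7 arrays (7.09 to 7.41). It was 7.69 on control 4, above the other control arrays (6.87 to 7.28). That mean joins opposite moves. Kit was lowest on the arrays numbered 4, while Cd34 (10.71 on KLF7 4 and 10.95 on control 4), Flt3, Slamf1 and Meis1 were highest there in both groups. None of these marker genes passed over all genes in limma.

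**Figure D4:**
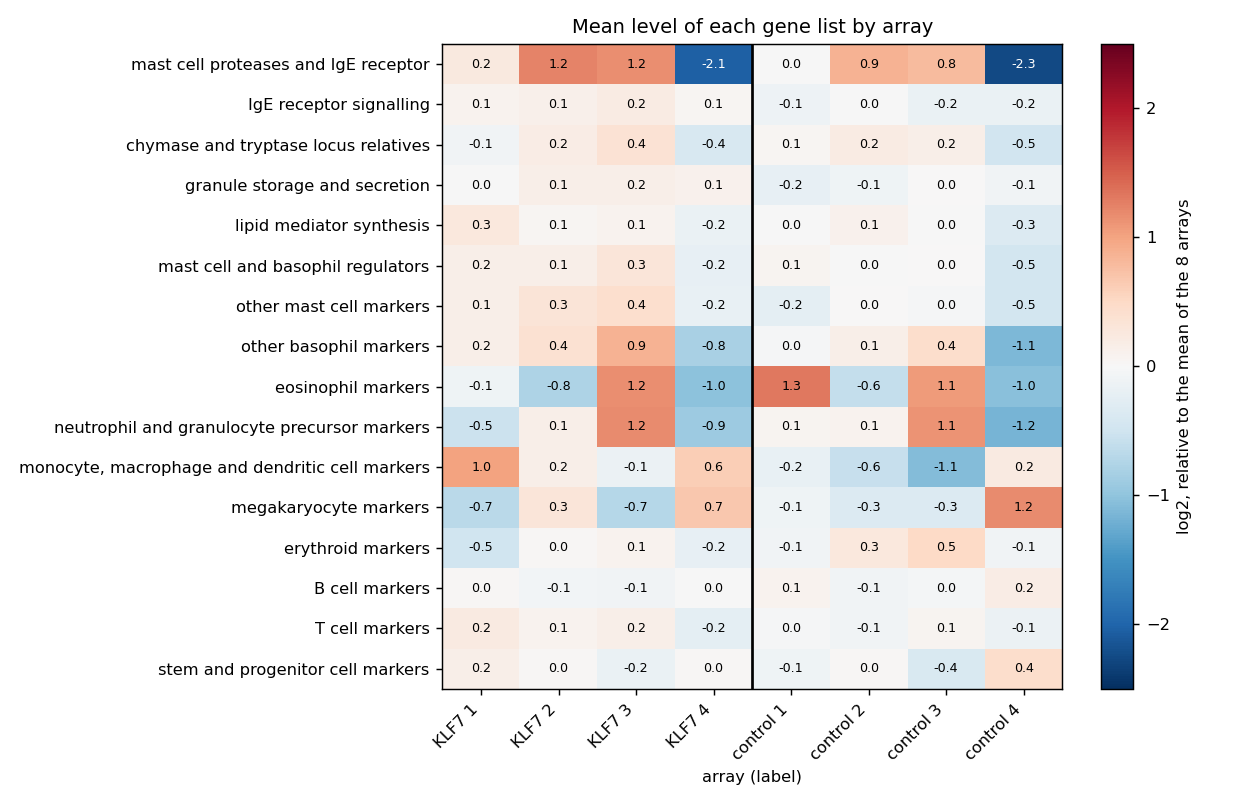
Mean log2 level of each gene list relative to its mean over the 8 arrays, with KLF7 arrays left of the line and control arrays right of it. The mast cell and basophil genes (top row) are lowest on KLF7 4 (mean level 6.18) and control 4 (5.97), where the megakaryocyte markers are highest (9.31 and 9.80).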

How the data were processed

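The deposited values are probe set intensities, one per probe set and array, which the authors computed by RMA, a method that subtracts background, normalises across arrays and combines the probes of a set. The software was Expression Console, per the submitters' processing notes. RNA was amplified before labelling, per the labels' protocols. Not given in the sources used here were software versions and a build.

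The intensities ran from 2.20 to 15393, a linear scale, and log2 was taken. Of 35554 probe sets, 21789 carried 1 gene symbol, 1621 several and 12144 none, and 21698 of the 21789 were matched to RefSeq (GRCm38.p6) by Entrez number. The probe set with the highest mean was kept for each of 19938 genes. The fit was made with limma 3.58.1 in R 4.3.3, with group as the only term and an intensity trend. The tests are two-sided, and p-values were adjusted by Benjamini and Hochberg's method over all genes, with 0.05 as threshold. Intervals of 95% are unadjusted.

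The members, the 15 other gene lists and the alternatives were chosen with earlier results of these data known. Lists were described by counts and medians, without a test. Named genes were the members, Klf7, Kit, up to 4 genes of a list by smallest p and the 5 genes most like Cpa3 and Mcpt8. Gzmc, Prss34, Gata2, Csf2rb2, Egr1, Srgn, Ndst2, Slc18a2 and Cd63 fell outside that rule and were chosen on their values. The same holds for Mcpt1, Ctsg, Gzmd, Gzmg, Mrgprb1, Mrgprb2, Csf1r, Cd68, Cd74, H2-Ab1, H2-Eb1, Lyz1, Lyz2, Cd34, Flt3 and Meis1. The scripts were tested on simulated data. Deviations of same-numbered arrays from their group means had correlations of 0.35, -0.13, 0.36 and 0.70 for the numbers 1 to 4. For 1, 3 and 4 the value was above the highest with another number (0.26, 0.32 and 0.11). For number 2 it was below (0.32). No label says that the numbers pair the arrays, so the number was not taken as a pairing in the main fit. Figures were drawn with matplotlib 3.10.9.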

Additional observations from a re-analysis of the deposited data

Results flagged for a closer look

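Of 24 groups of 4 arrays tested, those of the 10 genes, Klf7 and Kit in KLF7 and in control, 2 held an array whose gap to the nearest other array exceeded Dixon's 95% critical share of the group's range. Chance flags about 1 in 20 groups. KLF7 4 was low for Cpa3, with a gap of 0.893 of the range of the KLF7 arrays. Control 4 was low for Hdc, with a gap of 0.932 of the range of the control arrays. The same arrays were low for most of the other members, as given above, but with gaps below that share, since the array numbered 1 was often the next lowest.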

How the results depend on the processing

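The count of members past the threshold was 0 in limma under all 21 alternatives, with adjusted p down to 0.106 (Ms4a2 with the replicate number as a block). That block left the differences as they were (median 0.51) and gave adjusted p of 0.137 for Fcer1a and 0.146 for Mitf. It called 90 of all genes, against 0 without it. The numbers were not shown to pair the arrays, since not every array correlated best with its own number. The fit without the dimmer 50% of genes left Mcpt4 out. Directions turned for Mcpt8 without both arrays numbered 4 (-0.10) and for Tpsb2 with array weights (0.086), and the cause was not tested. With each array left out in turn, the differences ran from -0.59 to 1.57 for Cpa3, -0.17 to 1.49 for Cma1, -0.75 to 0.80 for Mcpt8, -1.05 to 0.91 for Tpsb2, -1.31 to 0.0077 for Tpsab1, -0.11 to 1.56 for Fcer1a, -0.040 to 1.55 for Ms4a2 and -0.98 to 0.65 for Hdc, while Mcpt4 (0.08 to 0.87) and Mitf (0.46 to 0.88) kept their direction. Averaging the probe sets of Mitf gave 0.37. The difference of Klf7 lay between 1.40 and 2.38 and passed under no alternative. Among list medians, that of IgE receptor signalling was 0.31 without both arrays numbered 2, that of granule genes 0.22 without both arrays numbered 4 and 0.089 to 0.23 with each array left out, that of lipid mediator genes 0.39 without both arrays numbered 2 and -0.11 (without KLF7 1) to 0.29 with each array left out, and that of the other mast cell markers 0.22 to 0.62 (without KLF7 4) with each array left out. The medians of the locus relatives and of the basophil, eosinophil, neutrophil, megakaryocyte, B cell and stem cell lists changed sign when 1 array was left out (-0.74 to 0.50 over these lists). With 4 arrays a group, the spread of the members allows differences of up to about 3 on the log2 scale (Cpa3, 3.11) within the interval.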
